A study of Mus musculus with 10 samples.

Results

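The Sox transcription factors of the neural lineage were followed here through 10 genes (Sox1, Sox2, Sox3, Sox4, Sox5, Sox6, Sox8, Sox9, Sox11 and Sox21) in mouse neurons treated with a chemical inhibitor of JNK, the stress kinases that phosphorylate Jun. The genes were taken by symbol from the probe annotation of the array. Each had exactly 1 probe set with its symbol alone, so all 10 were measured, out of 19938 genes tested. The cells were labelled as terminally differentiated neurons of strain 129Sv-C57Bl/6. One group received SP600125, an anthrapyrazolone that blocks JNK, 3 times at 25 µM with 2 hours between doses, and the other received the solvent DMSO on the same schedule. Each group had 5 biological replicates, lettered a to e. Replicates a and b were from drug batch 1 and c to e from drug batch 2. The study describes these batches as those of SP600125, but DMSO samples carry the same numbers, so the drug batch cannot be told apart from anything else that differed between the batches. RNA of each sample was hybridised to 1 Affymetrix whole-transcript array. Whether the replicates came from separate cultures is not in the labels, so the spread behind every p-value may be technical.

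Sox proteins bind DNA through an HMG box related to that of Sry and are sorted into subgroups by sequence. The SoxB1 proteins Sox1, Sox2 and Sox3 keep neural progenitors undifferentiated, and the SoxB2 protein Sox21 represses genes that SoxB1 proteins activate, as known from chick. The SoxC proteins Sox4 and Sox11 act later, in cells that leave the cycle and switch on neuronal genes. The SoxD proteins Sox5 and Sox6 shape the identity of cortical projection neurons and interneurons, and the SoxE proteins Sox8 and Sox9 act in glial development.

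The members of the SoxC subgroup were lower after SP600125, Sox21 was higher, and the other 7 genes did not pass the test. Sox4 fell by 0.33 on the log2 scale (SE 0.06) and Sox11 fell by 0.29 (SE 0.08), while Sox21 rose by 0.21 (SE 0.07, n = 5 arrays a group for each). Differences were tested with limma over all genes with drug batch as a term, and a call is a Benjamini-Hochberg adjusted p under 0.05. Over all genes tested, 29.9% were called lower and 17.0% were called higher. The 2 lower genes and 1 higher gene of 10 are therefore not more than the background. The median change of the 10 Sox genes was 0.02, beside −0.03 over all genes. In RNA of a whole culture, fewer cells of a type and less RNA per cell cannot be told apart.

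The proximal promoters of the 3 called genes are shown because Sox4 and Sox11 moved together and Sox21 moved the other way. The sequences are from RefSeq on GRCm38.p6, all on the minus strand, and cover the 250 bases before the gene start, read 5′ to 3′. The Sox4 window is chr13:28953700-28953949, the Sox11 window is chr12:27342719-27342968 and the Sox21 window is chr14:118237031-118237280. Capitals mark CCAAT on either strand (so also ATTGG), the letters bound by the factor NF-Y.
Sox4: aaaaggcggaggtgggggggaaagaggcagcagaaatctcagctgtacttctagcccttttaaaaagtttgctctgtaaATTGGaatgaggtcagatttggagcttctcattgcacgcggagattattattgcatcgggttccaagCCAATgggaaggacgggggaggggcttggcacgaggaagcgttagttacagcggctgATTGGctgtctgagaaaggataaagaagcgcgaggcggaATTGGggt
Sox11: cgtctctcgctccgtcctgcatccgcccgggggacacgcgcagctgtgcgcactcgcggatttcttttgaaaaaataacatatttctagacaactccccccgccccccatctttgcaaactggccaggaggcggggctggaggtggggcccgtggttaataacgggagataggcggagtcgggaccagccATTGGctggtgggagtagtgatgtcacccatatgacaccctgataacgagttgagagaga
Sox21: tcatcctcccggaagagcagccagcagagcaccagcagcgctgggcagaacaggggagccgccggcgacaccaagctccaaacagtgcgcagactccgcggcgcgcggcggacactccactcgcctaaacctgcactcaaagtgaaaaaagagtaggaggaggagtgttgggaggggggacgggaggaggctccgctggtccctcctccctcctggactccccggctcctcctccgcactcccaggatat
CCAAT occurred 4 times before Sox4, starting 171, 104, 47 and 8 bases before the gene start. It occurred once before Sox11, at 60 bases, and was not in the Sox21 window. Of 32851 promoter entries of the same length, 33.8% held CCAAT. The AP-1 motif TGANTCA, held by 6.75% of entries, and the Sox core ACAAT, held by 27.7%, were searched on both strands and were in none of these 3 windows. ACAAT and CCAAT share the letters CAAT but cannot lie on the same bases of a strand. These motifs were chosen after the changes were seen. Of the 10 genes, 8 had a promoter entry, all but Sox3 and Sox9, and 5 had CCAAT in at least 1 entry. Besides Sox4 and Sox11 these were Sox1, Sox2 and Sox6, which were not called (changes of 0.01, 0.04 and −0.04). CCAAT was therefore not confined to the genes that fell, and its part in the changes was not tested. The 8 genes had 13 entries, so 5 of 8 genes is not to be set beside the 33.8%, which counts entries.

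The SoxC genes came first among the changes. Sox4, an activator of neuronal genes such as Tubb3, had log2 expression values of 9.12, 9.31, 9.30, 9.30 and 9.24 in SP600125 replicates a to e, against 9.51, 9.45, 9.67, 9.64 and 9.68 in DMSO replicates a to e. Every SP600125 array lay below every DMSO array, and within DMSO the arrays of drug batch 2 were the higher ones. The means were 9.26 ± 0.08 after SP600125 and 9.59 ± 0.10 after DMSO (SD, n = 5), with a limma adjusted p of 0.000843 and a 95% interval of the change from −0.46 to −0.21. Over all genes, 16.4% had all SP600125 arrays below all DMSO arrays and 6.65% had them all above. Sox4 was the 1 Sox gene of 10 whose groups did not overlap.

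Sox11, the close relative of Sox4, had 8.86, 9.13, 9.10, 8.94 and 8.91 in SP600125 replicates a to e, against 9.39, 9.10, 9.32, 9.26 and 9.32 in DMSO replicates a to e. DMSO replicate b sat among the SP600125 arrays, and the other 4 DMSO arrays lay above all of them. The means were 8.99 ± 0.12 after SP600125 and 9.28 ± 0.11 after DMSO (SD, n = 5, limma adjusted p = 0.00684). Without both b arrays the change of Sox11 was −0.37. Leaving out 1 array at a time gave changes from −0.34 to −0.25. In drug batch 1 alone the change was −0.25 and did not pass (limma adjusted p = 0.295). After cyclic loess, which evens out differences that depend on signal level, the fall of Sox11 did not pass (−0.14, limma adjusted p = 0.115), whereas that of Sox4 did (−0.19, limma adjusted p = 0.016).

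Sox21 had 7.70, 7.56, 7.83, 7.56 and 7.69 in SP600125 replicates a to e, against 7.42, 7.63, 7.45, 7.42 and 7.37 in DMSO replicates a to e. Here too DMSO replicate b lay on the SP600125 side, above 2 of the SP600125 arrays. The means were 7.67 ± 0.11 after SP600125 and 7.46 ± 0.10 after DMSO (SD, n = 5, limma adjusted p = 0.0287, 95% interval of the change from 0.06 to 0.37). The call was lost on leaving out SP600125 replicate a, c or e, or DMSO replicate a, c, d or e (limma adjusted p from 0.0529 to 0.0750), with changes from 0.16 to 0.21. It was also lost when arrays were centred on their overall medians (0.11, limma adjusted p = 0.226), while after cyclic loess the change was 0.39 (limma adjusted p = 0.00318).

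**Figure D1:**
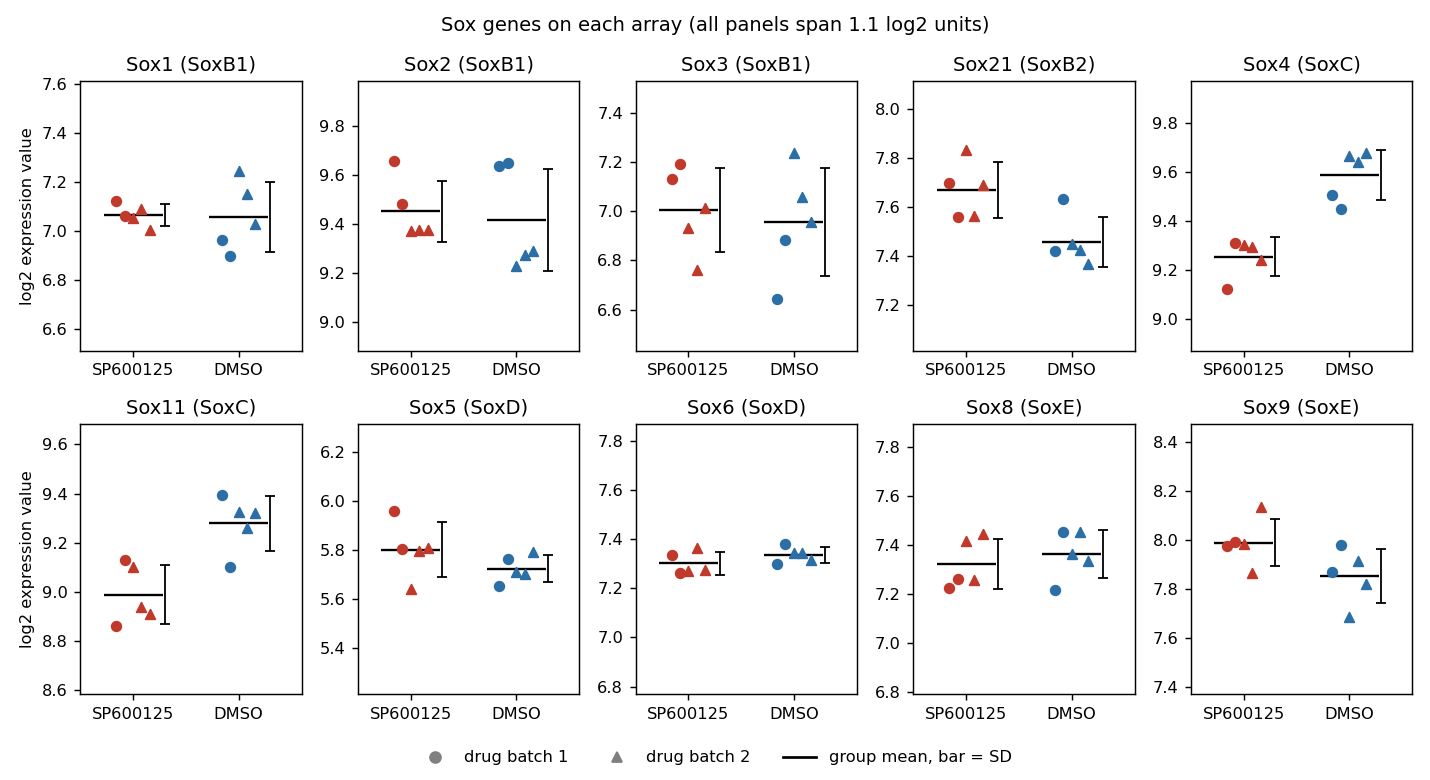
Log2 expression values of the 10 Sox genes on each array, with SP600125 at the left and DMSO at the right of each panel, circles for drug batch 1 and triangles for drug batch 2, a line at the group mean and a bar for the SD (n = 5). Sox4 is the 1 gene whose groups do not overlap, and the arrays of drug batch 1 are the highest for Sox2 in both groups.

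The SoxB1 genes did not pass the test in either direction. Sox2, a factor of neural progenitors and pluripotent cells, had 9.66, 9.48, 9.37, 9.38 and 9.37 in SP600125 replicates a to e, against 9.64, 9.65, 9.23, 9.27 and 9.29 in DMSO replicates a to e. In both groups the 2 arrays of drug batch 1 were the highest. The change with treatment was 0.04 (SE 0.06, 95% interval −0.09 to 0.17, limma adjusted p = 0.641). The difference of drug batch 2 minus drug batch 1 was −0.29 (SE 0.06), which missed the threshold (limma adjusted p = 0.0513). No Sox gene of the 10 was called for the batch term, which called 0.722% of all genes, and only Sox2 had an unadjusted p under 0.05 for it in limma.

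Sox1, an early marker of the neural plate, had 7.12, 7.06, 7.05, 7.09 and 7.005 in SP600125 replicates a to e, against 6.96, 6.90, 7.25, 7.15 and 7.03 in DMSO replicates a to e. The SP600125 arrays lay close together inside the range of the DMSO arrays, and the change was 0.01 (SE 0.07, 95% interval −0.14 to 0.15). Sox3, the X-linked SoxB1 gene, had 7.13, 7.19, 6.93, 6.76 and 7.02 in SP600125 replicates a to e, against 6.64, 6.88, 7.24, 7.06 and 6.96 in DMSO replicates a to e. It was the most variable of the 10, with a range of 0.60 over the DMSO arrays, a change of 0.05 (SE 0.11) and the widest interval, from −0.18 to 0.28.

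The SoxD genes did not pass either. Sox6, known from interneurons, had 7.34, 7.26, 7.27, 7.37 and 7.28 in SP600125 replicates a to e, against 7.30, 7.38, 7.34, 7.35 and 7.32 in DMSO replicates a to e, a range of only 0.08 within DMSO. Its change was −0.04 (SE 0.06, 95% interval −0.15 to 0.08). Sox5, known from deep-layer cortical neurons, had 5.96, 5.81, 5.64, 5.80 and 5.81 in SP600125 replicates a to e, against 5.65, 5.77, 5.71, 5.70 and 5.79 in DMSO replicates a to e. Its groups overlapped, the change was 0.08 (SE 0.07, 95% interval −0.06 to 0.22), and its mean of 5.76 was the nearest to the background level of 5.26. That level is the 95th percentile of the DMSO means of 1027 olfactory receptor genes, and all 10 Sox genes had a mean above it.

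The SoxE genes did not pass on the deposited values. Sox9, a factor of neural stem cells and astrocytes, had 7.98, 7.99, 7.98, 7.86 and 8.13 in SP600125 replicates a to e, against 7.87, 7.98, 7.69, 7.92 and 7.82 in DMSO replicates a to e. All but 1 of the SP600125 arrays lay above all but 1 of the DMSO arrays, and the change was 0.13 (SE 0.07, 95% interval −0.01 to 0.28, limma adjusted p = 0.124). It passed after quantile normalization (0.27, limma adjusted p = 0.0125) and after cyclic loess (0.32, limma adjusted p = 0.0059). Sox8 had 7.23, 7.26, 7.42, 7.26 and 7.45 in SP600125 replicates a to e, against 7.22, 7.46, 7.36, 7.45 and 7.33 in DMSO replicates a to e. These groups overlapped almost fully, and the change was −0.04 (SE 0.07, 95% interval −0.18 to 0.10).

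The scaling of the arrays moved every Sox gene. After cyclic loess 2 of the 10 were called higher (Sox9 and Sox21) and 1 lower (Sox4), where 9.44% of all genes were called higher and 17.7% lower, and the median change of the 10 was 0.14 beside −0.02 over all genes. On the deposited values 6 of the 10 changes were positive and after cyclic loess 8 were, all but those of Sox4 and Sox11. Centring the arrays on their medians over all probe sets shifted the median change of all genes by −0.10, and there only Sox9 and Sox21 of the 10 had a positive change (0.03 and 0.11). The direction of Sox4, Sox11, Sox9 and Sox21 was the same under all 5 scalings, whereas Sox6 and Sox8 changed sign after quantile normalization and cyclic loess. Sox1, Sox2, Sox3 and Sox5 changed sign only under centring on array medians, which moves every gene by the same amount.

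**Figure D2:**
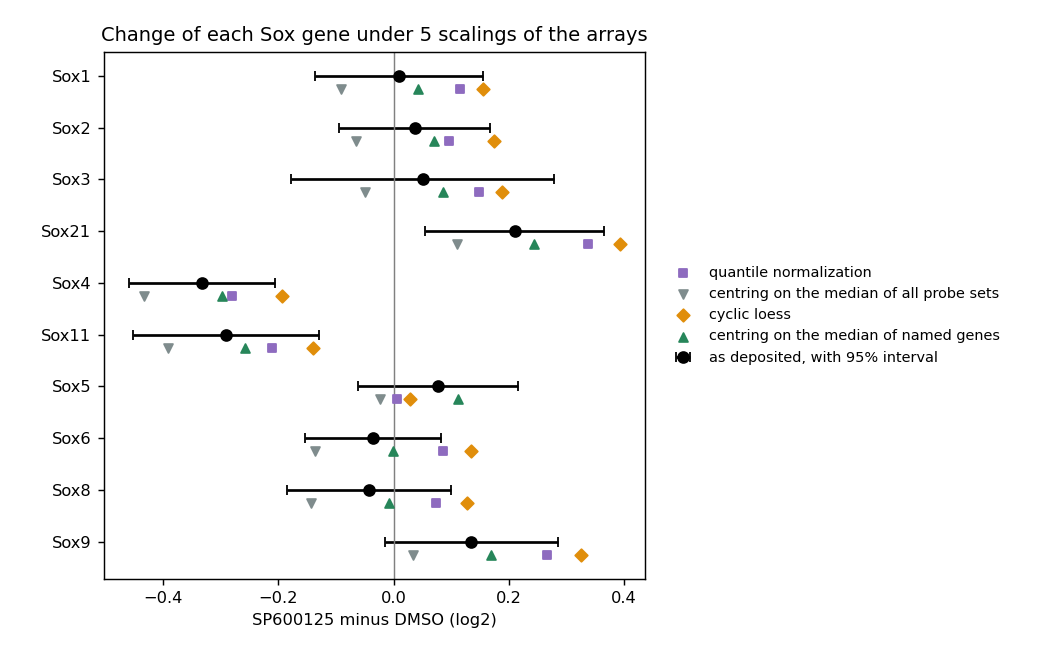
SP600125 minus DMSO on the log2 scale for each Sox gene, as deposited (black, with the 95% interval of limma) and after 4 other scalings of the arrays (coloured points below it). Sox4 and Sox11 lie left of 0 and Sox9 and Sox21 right of 0 under each, and the cyclic loess value of Sox21 is 0.39.

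Signal level moved with the treatment over the whole table, so each Sox gene also has the genes of its level beside it. Of the 3363 genes with a mean log2 value between 7 and 8, 2.94% were called higher and 60.6% lower, with a median change of −0.22. The 5 Sox genes that lie there are Sox1, Sox6, Sox8, Sox9 and Sox21, of which 1 was called higher and 0 lower. Of the 620 genes between 9 and 10, 3.23% were called higher and 64.4% lower, with a median of −0.21. Sox2, Sox4 and Sox11 lie there, and 2 of these 3 were called lower. The SD over genes ran from 1.63 to 1.71 on the SP600125 arrays and from 1.76 to 1.84 on the DMSO arrays, and what part this had in the changes was not tested.

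**Figure D3:**
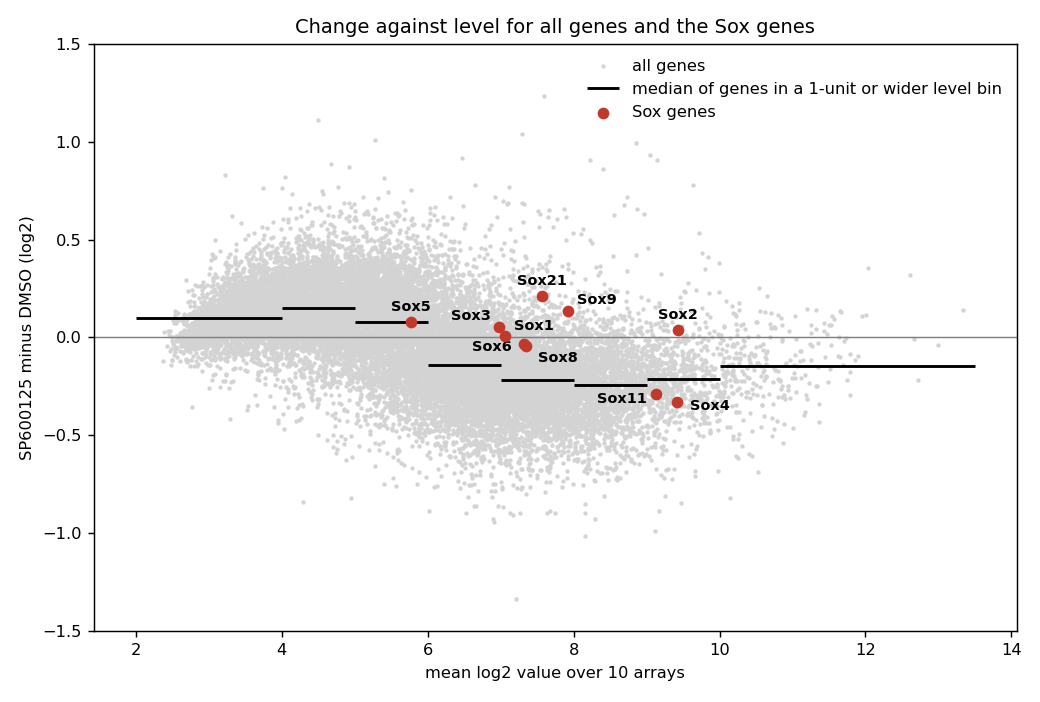
SP600125 minus DMSO against the mean log2 value over 10 arrays for all genes (grey) and the Sox genes (red), with the median change of genes in each level bin as black lines. Sox4 and Sox11 lie below the median of their bin (−0.21), while Sox1, Sox2, Sox3, Sox6, Sox8, Sox9 and Sox21 lie above that of theirs and Sox5 lies at it.

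The response was compared between the drug batches. Sox4 changed by −0.26 in drug batch 1 and −0.38 in drug batch 2, and its groups were apart in both batches. Sox11 changed by −0.25 and −0.32, and Sox21 by 0.10 and 0.28, with groups apart in drug batch 2 alone for each. Sox3 differed most, at 0.40 in drug batch 1, where both SP600125 arrays lay above both DMSO arrays, and −0.18 in drug batch 2, where the groups overlapped. Its interaction of treatment and batch was −0.58 (SE 0.16), with a limma adjusted p of 0.478. Such separation was not particular to Sox3. SP600125 arrays also lay above all DMSO arrays in drug batch 1 for Sox1 (0.16) and Sox5 (0.17), and in drug batch 2 for Sox2 (0.11). The treatment labels have only 6 arrangements in drug batch 1 and 20 in drug batch 2, so groups can easily lie apart without an effect. The share of all genes with groups apart within a batch was not counted, so no conclusion is drawn from such separation. No Sox gene of the 10 had a called interaction, and neither had any other gene (0.00% of all genes, with 1852 of 19938, and Sox3 alone of the 10, at an unadjusted p under 0.05 in limma). In drug batch 1 alone, with 2 arrays a group, none of the 10 passed, and limma called 0 of all genes higher and 1 lower.

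**Figure D4:**
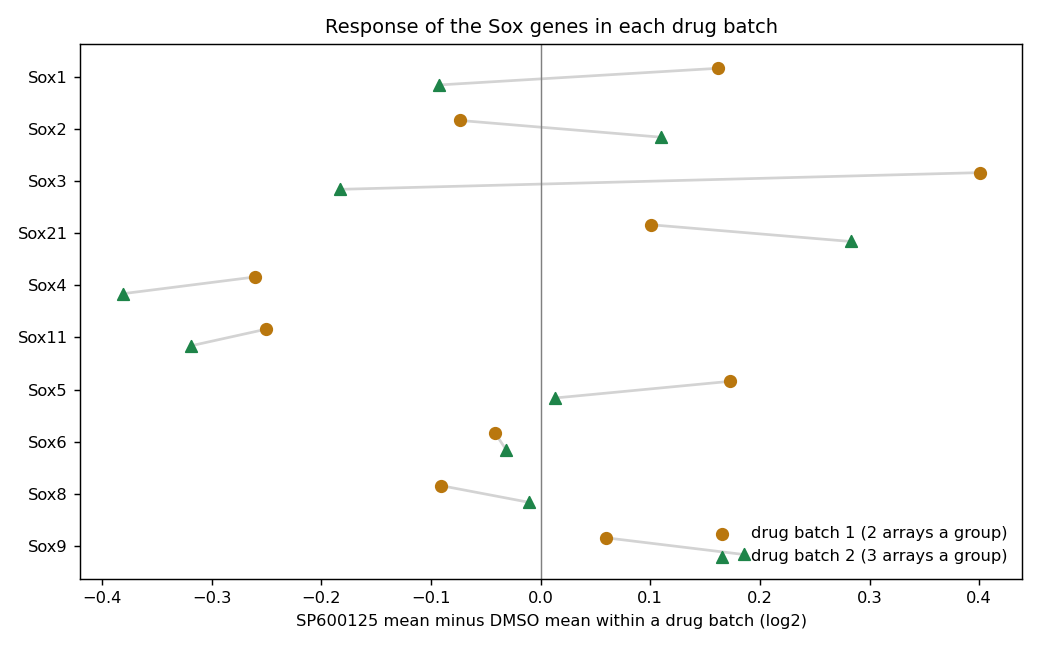
SP600125 mean minus DMSO mean on the log2 scale for each Sox gene within drug batch 1 (circles, 2 arrays a group) and drug batch 2 (triangles, 3 arrays a group). Sox1, Sox2 and Sox3 lie on opposite sides of 0 in the batches and the other 7 genes on the same side, with Sox3 at 0.40 in batch 1 and −0.18 in batch 2.

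Related Sox genes were then compared for how far their responses differed, in 7 pairs, by an exact two-sided permutation of the treatment labels within drug batch. The smallest p this design allows is 0.0167, or 0.117 after Benjamini-Hochberg adjustment over the 7 when a single pair reaches it. If pairs were to pass by this smallest p alone, at least 3 had to reach it, so the adjusted test could not have called a lone pair. None passed. Unadjusted, 2 pairs had an exact p under 0.05. The response of Sox8 minus that of Sox9 was −0.18 (95% interval of a linear model with batch −0.28 to −0.08, exact permutation p = 0.0167, adjusted p = 0.117). The response of Sox2 minus that of Sox21 was −0.17 (−0.32 to −0.03, exact permutation p = 0.0333, adjusted p = 0.117). For the SoxC pair the difference Sox4 minus Sox11 was −0.04 (−0.16 to 0.08, exact permutation p = 0.417, adjusted p = 0.729). The intervals of the pairs of SoxB1 genes were wider, reaching from −0.41 to 0.39 for Sox2 minus Sox3.

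The other 10 genes of the family gave 1 rise and 1 fall, both fewer than the shares over all genes (17.0% higher, 29.9% lower). Sry, the Y-linked sex-determining gene, rose by 0.37 (SE 0.09, limma adjusted p = 0.00449), with means of 6.48 ± 0.21 after SP600125 and 6.12 ± 0.13 after DMSO (SD, n = 5). Sox12, the remaining SoxC gene, fell by 0.23 (SE 0.09, limma adjusted p = 0.0399), with means of 6.57 ± 0.13 after SP600125 and 6.81 ± 0.17 after DMSO (SD, n = 5). After cyclic loess Sry passed (0.41) and Sox12 did not (−0.13, limma adjusted p = 0.233). The other 8 had changes from −0.19 (Sox17) to 0.18 (Sox14), and Sox10, a SoxE gene of oligodendrocytes and the neural crest, had −0.11 (SE 0.07). These 3 genes and the non-coding genes named after Sox loci were chosen after their values were seen, and none passed. Sox1ot, whose locus overlaps Sox1, had 6.11 ± 0.08 after SP600125 and 5.98 ± 0.09 after DMSO, and Sox6os had 5.48 ± 0.11 after SP600125 and 5.60 ± 0.12 after DMSO (SD, n = 5).

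Genes that SoxB1 proteins work with or that mark progenitors had calls at or under the shares over all genes (17.0% higher, 29.9% lower). Of 21 measured, 1 rose and 6 fell, leaving 14 that did not pass, and the median of the list was −0.05. Nes, the nestin gene, whose neural enhancer is bound by Sox2 with POU factors, had 6.55 after SP600125 and 7.88 after DMSO, and fell by 1.34 (SE 0.06). Cdh2, which encodes N-cadherin, fell by 0.72 (SE 0.07) and Zic1, a zinc finger factor, by 0.47 (SE 0.09). Pou3f2, the POU factor Brn2, rose by 0.35 (SE 0.11). After cyclic loess 2 rose and 5 fell.

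Neuronal differentiation genes of the kind that SoxC proteins switch on were either lower or did not pass. Of 20 measured, 0 rose and 10 fell, leaving 10 that did not pass, and the median of the list was −0.17 (7 fell after cyclic loess). Over all genes, 17.0% were called higher and 29.9% lower. The mean log2 level of the list ran from 7.31 to 7.51 over the SP600125 arrays and from 7.48 to 7.64 over the DMSO arrays. Of all genes with a mean between 7 and 8, 60.6% were called lower, with a median change of −0.22. Tubb3, the neuronal tubulin, had 9.33 after SP600125 and 9.87 after DMSO, and fell by 0.54 (SE 0.13). Elavl4 (−0.81, SE 0.12) and Elavl3 (−0.59, SE 0.12), which encode neuronal RNA-binding proteins, and the zinc finger factor Myt1l (−0.64, SE 0.10) fell as well. Among 12 pan-neuronal markers, 6 of which are in this list, 11 fell and 1 did not pass. Their mean log2 level ran from 8.40 to 9.01 over the SP600125 arrays and from 8.79 to 9.16 over the DMSO arrays. Of all genes with a mean between 8 and 9, 66.3% were called lower. All 12 markers were above background, and their part in the fall of the SoxC genes was not tested. Syp, the vesicle protein synaptophysin (−0.67, SE 0.13), and the neurofilament Nefl (−0.60, SE 0.15) were examples.

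Genes of the cells in which SoxD and SoxE proteins act had calls near or under the shares over all genes (17.0% higher, 29.9% lower). Of 14 cortical and interneuron genes, 2 rose, 3 fell and 9 did not pass, with a median of −0.01. The neuropeptide Npy fell by 0.56 (SE 0.15) and the cortical factor Cux2 by 0.24 (SE 0.07), while the interneuron factor Dlx1 rose by 0.35 (SE 0.09) and Fezf2, a factor of deep-layer neurons, by 0.27 (SE 0.07). Dlx1 and Fezf2 had DMSO means of 5.11 and 5.27, near the background level of 5.26. Of all genes with a mean between 5 and 6, 27.6% were called higher. After cyclic loess only Dlx1 of the 14 passed. Of 19 glial and cartilage genes, 2 rose, 6 fell and 11 did not pass, with a median of 0.01. Acan, the proteoglycan aggrecan and a Sox9 target in cartilage, had 5.18 after SP600125, which is below the background level, and 5.94 after DMSO. It fell by 0.76 (SE 0.11). Gfap, the astrocyte filament, fell by 0.36 (SE 0.06), Olig1 by 0.35 (SE 0.07) and the receptor Pdgfra by 0.23 (SE 0.06). The 2 that rose, named after their values were seen, were the cartilage collagens Col9a1 (0.21, SE 0.08) and Col11a2 (0.19, SE 0.07).

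Markers of other cells were checked beside the label of the cultures. The shares over all genes to set beside their counts are 17.0% higher and 29.9% lower. Of 10 astrocyte markers 8 were above background, and 3 rose and 4 fell, with mean levels from 8.17 to 8.28 over the SP600125 arrays and from 8.18 to 8.26 over the DMSO arrays. Gjb6, a gap junction gene whose mean of 4.63 was below the background level, passed with 0.32 (SE 0.08), while Aldoc (−0.23, SE 0.06) and Aldh1l1 (−0.21, SE 0.06) fell with Gfap. These were named for the size of their changes and do not stand for the list, whose median was 0.03. After cyclic loess 3 of the 10, none of them named here, were higher, and 2 (Gfap and Aldoc) were lower. Of 10 oligodendrocyte lineage markers, 7 of them above background, 5 fell and 0 rose, led by Cnp (−0.47, SE 0.07) and Gpr17 (−0.47, SE 0.09). Mean levels of these 10 ran from 6.67 to 6.78 over the SP600125 arrays and from 6.82 to 6.92 over the DMSO arrays. Between 6 and 7, 41.1% of all genes were called lower, and after cyclic loess 3 of the 10 markers were. Of 10 fibroblast and endothelial markers 9 were above background and 4 fell, among them the collagens Col1a1 (−0.69, SE 0.07), Col1a2 (−0.61, SE 0.06) and Col3a1 (−0.43, SE 0.06) and the receptor Kdr (−0.18, SE 0.06). The cultures labelled as neurons thus also gave signal for glial and mesenchymal genes. Of 7 proliferation markers 6 fell, including Bub1 (−0.48, SE 0.09), Mki67 (−0.44, SE 0.07), Mcm2 (−0.34, SE 0.06) and Cdk1 (−0.32, SE 0.07). Mean levels of these 7 ran from 7.23 to 7.50 over the SP600125 arrays and from 7.64 to 7.70 over the DMSO arrays. Between 7 and 8, 60.6% of all genes were called lower, and after cyclic loess 2 of the 7 markers were. Of 8 microglia and macrophage markers, 3 of them above background, 5 passed as higher, with Cx3cr1 at 0.44 (SE 0.10) and Trem2 at 0.31 (SE 0.11). Tyrobp and Aif1 also passed (0.23, SE 0.08 for each), but their means of 4.70 and 4.03 were below the background level, and 36.2% of all genes with a mean between 4 and 5 were called higher. Of 8 pluripotency markers, 3 of them above background, Dppa5a (0.72, SE 0.09), Nanog (0.37, SE 0.09) and Klf4 (0.28, SE 0.07) rose. The mean of Nanog, 5.33, was close to the background level of 5.26. After cyclic loess Olig1, Pdgfra, Gjb6, Aldh1l1, Tyrobp, Aif1, Mcm2 and Cdk1 did not pass (limma adjusted p from 0.0868 to 0.762). The part of these cells in the values of the Sox genes was not tested.

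**Figure D5:**
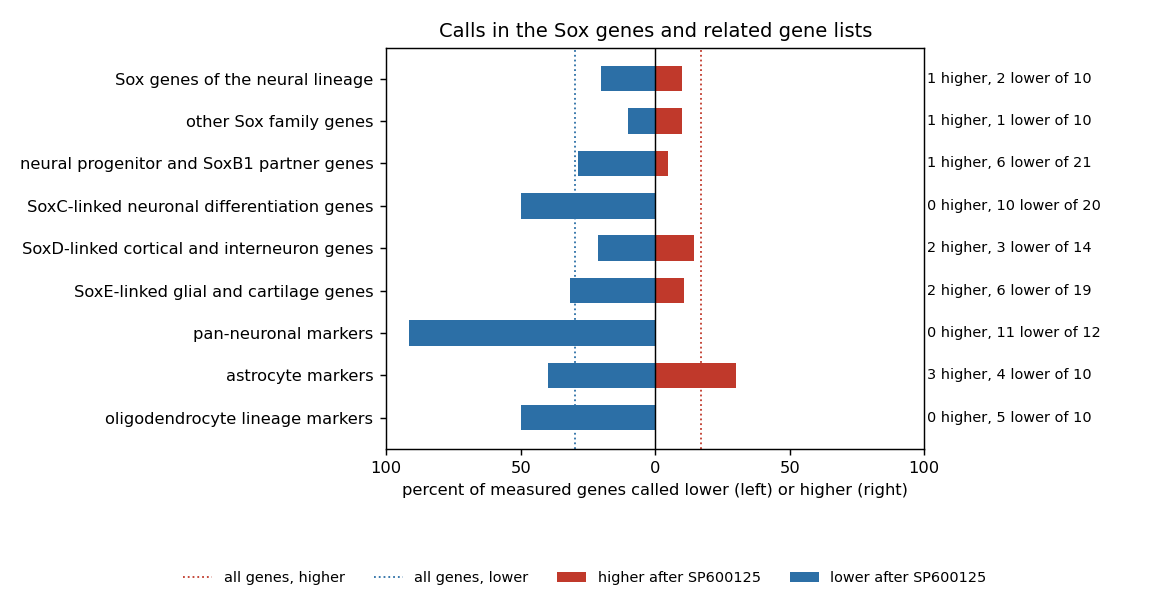
Share of the measured genes of each list that limma called higher (right of 0) or lower (left of 0) after SP600125, with dotted lines at the shares over all genes (17.0% higher, 29.9% lower). The pan-neuronal markers have 11 of 12 genes lower, and the 10 Sox genes have 2 lower and 1 higher.

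The genes most like the called Sox genes from array to array were looked up. Likeness was the mean absolute difference between log2 values, each centred on the gene's mean over the 10 arrays, and it is a description with no test. Nearest to Sox4 were Arnt2, a bHLH-PAS factor of neurons (0.0227), Atp6ap1, an accessory subunit of the vacuolar proton pump (0.0239), and Vac14 (0.0256). Nearest to Sox11 were Fbxw11 (0.0286), the sorting receptor Sorl1 (0.0292) and Rnf216 (0.0302). Nearest to Sox21 were Dlec1 (0.0375), Trp53inp1 (0.0394) and Ccdc162 (0.0415). Dlec1 and Ccdc162 had group means of 4.40 to 4.81, below the background level of 5.26, and Ccdc162 was not called (limma adjusted p = 0.0658). Since likeness was taken over the same 10 arrays, a like change with treatment follows from the choice.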

How the data were processed

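Total RNA of 10 neuron samples (5 SP600125, 5 DMSO) was hybridised to Affymetrix whole-transcript arrays, per the labels. The authors deposited log2 expression values in 1 table of 35556 probe sets, and the submitters' processing notes name oligo 1.14.0. That the scale is log2 was read from the values (1.90 to 13.8). Which background correction, normalization and summarization they used is not given in the sources used here. The values were used as deposited.

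Of the probe sets, 21789 carried 1 symbol, 1621 several and 12146 none in the platform annotation, which can be old. Each gene was taken as its single-symbol probe set with the highest mean, giving 19938 genes. All 10 Sox genes matched a RefSeq gene by Entrez ID. Levels of different probe sets are not comparable. Changes are SP600125 minus DMSO from limma 3.58.1 in R 4.3.3 (lmFit, eBayes, two-sided, batch as term, 7 residual degrees of freedom). The fit was checked on simulated data with independent noise for each gene. Those data lacked the shift with signal level seen here, so the check says nothing about calls under such a shift. The number of arrays limits the precision, and low signals compress changes.

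The Sox genes, the lists and the tests were chosen with earlier results of these data known. Named genes were the 10 Sox genes, the called genes among the other Sox genes, up to 4 of the largest called changes of each further list, and the 3 genes nearest to each called Sox gene. Alternatives were 4 scalings, other models and filters, single drug batches, leaving out arrays, and a replicate block.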

Additional observations from a re-analysis of the deposited data

How the results depend on the processing

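On the deposited values 3389 genes were called higher and 5962 lower, and 1 and 2 of the Sox genes. Genes called higher numbered 1497 after quantile normalization, 1500 after centring on array medians, 1882 after cyclic loess, 1280 among genes above background alone (fewer genes tested), 0 in drug batch 1 and 2206 in drug batch 2 (fewer arrays). Genes called lower numbered 3537 after cyclic loess and 1 in drug batch 1. Rises made up 36.2% of all calls as deposited, 25.0% with quantile normalization, 14.8% with centring on array medians, 34.7% with cyclic loess and 46.9% with centring on named genes. Sox genes called higher numbered 2 after quantile normalization and after cyclic loess, and 0 after centring on array medians, under the replicate block and in drug batch 1. Sox genes called lower numbered 1 after cyclic loess and 0 in drug batch 1. For the scalings the cause was not tested. Leaving out 1 array gave 2392 to 3475 genes higher, 5106 to 6355 lower, 0 to 1 Sox genes higher and 2 in every case lower. Sox4 passed under 21 of 22 alternatives, Sox11 under 20 and Sox21 under 12. An interaction was fitted under 17 alternatives and called for none of the 10 Sox genes. The 17 alternatives with a pair test say nothing about stability, since a lone pair cannot go below an adjusted p of 0.0556 in any of them. With the replicate block (letters a to e), Sox21 had a limma adjusted p of 0.0519, Sox4 and Sox11 passed, 2954 genes were higher and 5298 lower. Deviations of same-letter arrays from their group means correlated from −0.21 to 0.10, and 1 of 5 letters correlated best with its own, so the letters were not taken as pairs. Sign changes of paired differences and single batches cannot reach an exact p under 0.05 for the pairs of Sox genes and gave values only. Leaving out both b arrays cannot reach it either, since its 40 label arrangements mirror each other, though it is counted among the 17. Without both b arrays the same counts of Sox genes were called (1 higher, 2 lower).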
